A study of Arabidopsis thaliana with 4 samples.

Results

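The mitochondrial transcripts of Arabidopsis thaliana were followed through 72 loci, all those whose identifiers carry the prefix of the mitochondrial genome (ATMG), among the 23695 loci that had a read in any library. The RNA came from hypocotyls, the embryonic stems, of seedlings aged 4 days that had grown in the dark. Wild-type (Col-0) and arf7 seedlings were each sampled without hormone (mock) and with 500 nM of a synthetic auxin, naphthalene acetic acid (NAA). The arf7 plants are labelled as a T-DNA mutant with no allele given. The mutated gene, ARF7, encodes an auxin response factor, which switches on genes when auxin is present. Each group was 1 library, so no difference below has a replicate check, and every fold compares single libraries, not conditions. The study asked how the auxin response of the hypocotyl differs in the mutant.

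The plant mitochondrial genome encodes the ribosomal RNAs of the mitochondrial ribosome, some of its proteins, core subunits of the respiratory complexes and the ATP synthase, proteins that mature cytochrome c, and many open reading frames of unknown role. Most mitochondrial proteins are instead encoded in the nucleus, among them the phage-type RNA polymerases RPOTM and RPOTMP that transcribe the mitochondrial genome. In Arabidopsis Col-0, chromosome 2 also carries a large insertion of mitochondrial DNA, so many sequences exist in both places.

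Of the 72 loci, 3 were ribosomal RNAs, 41 were open reading frames, 1 was a transfer RNA, and the other 27 were named protein genes or exons of split genes. In Col-0, 62 had a read without NAA and 45 with it, and in arf7 60 and 62 did. Reads occurred in every library for 40 loci, and only 12 had 10 or more counts in each library. In Col-0 NAA alone, 11 loci were at 0 counts while the other 3 libraries all had reads of them. A minimum mean of 1 CPM (counts per 1000000 counts of the library) over the 4 libraries was met by 27 of the 72 loci, of which 24 were not ribosomal RNA. These 27, described locus by locus below, are not all members. Of them, 15 reached 1 CPM in each library, 11 were under it in Col-0 NAA, and all 27 would have passed without either Col-0 library. Without arf7 mock or without arf7 NAA, 25 would have passed: ORF145C depended on both, ORF167 on arf7 mock and ORF157 on arf7 NAA, each being highest in a library it depended on. Genes of complex III and several of complex I, the ATP synthase, cytochrome c maturation and the ribosome that belong to the role lists had no row in the 4 tables and were not analysed here.

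In units of 1000000 counts, the library totals lay between 6.997 and 7.41. The Col-0 NAA library differed from the rest over all genes, with Spearman correlations across loci of 0.847 to 0.881 to them against 0.968 to 0.981 among them. The 13 markers of other tissues (root hair, endodermis, shoot apex and seed), of which 12 were listed, summed to 21.87 CPM without NAA and 700.0 with it in Col-0, and to 19.29 and 66.23 in arf7. With NAA, 9 of the 9 markers compared were higher in Col-0 and 6 of 9 in arf7, by the size rule given below. Of all loci compared, 14.8% and 3.84% were higher. A marker near 0 counts without NAA can meet the minimum mean only through libraries with NAA, so these counts are partly set by it. The endodermal genes CASP1 and CASP5 held 2083 and 2126 counts in Col-0 NAA. The root hair gene EXPA7 was at 0 counts in both mock libraries, and RHD6, EXPA18 and RSL4 were at 0 in arf7 mock. The part of other cell types in the results below was not tested. The mutated gene ARF7 had 8 counts and 8 in Col-0 (mock, then NAA) and 3 and 1 in arf7, on at most 2.03% of its model, too few to check the genotype labels firmly. Every result that involves Col-0 NAA rests on that library alone.

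The summed mitochondrial reads were far higher in Col-0 NAA than in the other libraries, and most of the excess lay in ribosomal RNA. The 72 loci held 5985 counts (mock) and 50538 (NAA) in Col-0 and 7112 and 6590 in arf7. Here and below, 4 values in a row are those of Col-0 and then of arf7, mock before NAA in each. The 3 ribosomal RNA loci held 4238, 47967, 5224 and 4846 of these counts. As shares of the library the 72 loci were 0.0808%, 0.704%, 0.102% and 0.0915%. Counts were scaled between libraries with the TMM method of edgeR, and parentheses give the 95% exact interval of a ratio of 2 libraries, which covers counting error only. With NAA the sum was 8.97-fold higher in Col-0 (8.74 to 9.22) and 0.902-fold in arf7 (0.872 to 0.933). Between the genotypes it was 1.20-fold in arf7 against Col-0 without NAA (1.16 to 1.25) and 8.27-fold lower in arf7 with NAA (8.06 to 8.49). In bulk RNA, fewer cells of a type and less RNA per cell cannot be told apart.

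**Figure D1:**
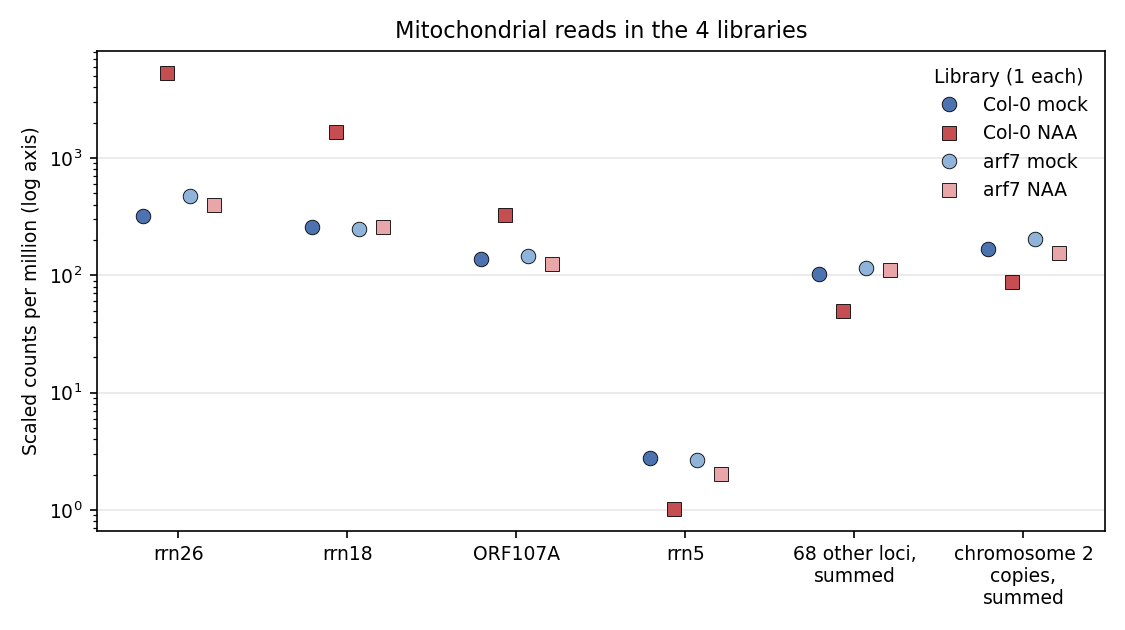
Scaled CPM on a log axis for the 3 mitochondrial ribosomal RNAs, ORF107A, the other 68 mitochondrial loci summed, and the 28 mitochondrial-like loci of chromosome 2 summed, with 1 point per library. The Col-0 NAA library is the highest for rrn26, rrn18 and ORF107A and the lowest for rrn5 and both sums.

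The large-subunit ribosomal RNA rrn26 (ATMG00020; chromosome M, 8848 to 11415, reverse strand, in the TAIR10 coordinates of the files) had 2345 counts and 36643 in Col-0 (mock, then NAA) and 3407 and 2941 in arf7. The Col-0 NAA library was far above the others, which lay close together. With NAA it was 16.6-fold higher in Col-0 (15.9 to 17.3) and 0.840-fold in arf7 (0.799 to 0.883). The small-subunit RNA rrn18 (ATMG01390; chromosome M, 361350 to 363284, reverse strand) had 1873, 11317, 1798 and 1890 counts in that order. It too was high in Col-0 NAA only, at 6.42-fold over mock (6.11 to 6.75), against 1.02-fold in arf7 (0.959 to 1.09). Reads covered at least 94.9% of rrn26 and 97.47% of rrn18 in each library. The sources used here do not say how ribosomal RNA was handled when the libraries were made.

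The 2 large ribosomal RNAs did not keep a fixed ratio. Per length, the RPKM of rrn26 over that of rrn18 was 0.943 (mock) and 2.44 (NAA) in Col-0 and 1.43 and 1.17 in arf7. Only in Col-0 NAA did rrn26 exceed rrn18 by more than 2-fold on this scale. Ribosomal RNA made up 70.8% of mitochondrial reads in Col-0 without NAA and 94.9% with it, and 73.5% in both arf7 libraries. A nuclear ribosomal RNA locus, the 18S RNA AT3G41768, had 3067, 4924, 2375 and 2642 counts, 1.71-fold higher in Col-0 NAA than in Col-0 mock (1.63 to 1.79). The 78 chloroplast loci summed to 20289, 29597, 26168 and 23770 counts, 1.55-fold higher in Col-0 NAA (1.52 to 1.58). Both were thus also highest in Col-0 NAA, by less than rrn26 and rrn18, and their part in the result was not tested.

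The small 5S ribosomal RNA rrn5 (ATMG01380), a component of the large mitochondrial ribosomal subunit, went the other way. It lies 170 bases from rrn18 on the same strand (chromosome M, 361062 to 361179) and is shown because it neighbours rrn18 on its strand but does not share its direction. It had 20 counts and 7 in Col-0 (mock, then NAA) and 19 and 15 in arf7, so the Col-0 NAA library was the lowest. With NAA it was 2.69-fold lower in Col-0 (1.09 to 7.52) and 0.768-fold in arf7 (0.363 to 1.60). The sequence is RefSeq's, from positions 126001 to 126118 of the reverse strand of the mitochondrion in TAIR10.1, a record numbered differently from the files, in which the gene was found by name.
rrn5: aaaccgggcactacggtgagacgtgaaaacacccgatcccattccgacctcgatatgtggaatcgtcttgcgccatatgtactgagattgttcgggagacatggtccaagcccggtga

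ORF107A (ATMG00030; chromosome M, 11918 to 12241, forward strand), an open reading frame of unknown role, held most reads outside ribosomal RNA. It had 1007 counts (mock) and 2232 (NAA) in Col-0 and 1053 and 926 in arf7. The Col-0 NAA library was the highest and the others were close together. With NAA it was 2.36-fold higher in Col-0 (2.19 to 2.54) and 0.856-fold in arf7 (0.783 to 0.936). It took 57.6%, 86.8%, 55.8% and 53.1% of the reads outside ribosomal RNA in these libraries. Its level per length, 419.6 RPKM in Col-0 mock and 960.2 in Col-0 NAA, compares with 15.6 and 9.60 RPKM for ORF149, another open reading frame. Of its model, reads covered 48.77% and 50.93% in Col-0 (mock, then NAA) and 63.89% and 47.84% in arf7.

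In the files ORF107A begins 503 bases beyond the end of rrn26, on the opposite strand. RefSeq annotates a longer rrn26, of 3169 bases against 2568 in the files. The only open reading frame of the same length, 324 bases, within 3000 bases of it in RefSeq has 185 bases, or 57.1%, inside rrn26. That reading frame was taken as ORF107A by its length and place. The first 260 bases are printed, from MT positions 143781 to 144040 of TAIR10.1, forward strand, with the bases inside RefSeq's rrn26 in capitals, because they show how much of this message is also annotated as ribosomal RNA on the other strand.
ORF107A: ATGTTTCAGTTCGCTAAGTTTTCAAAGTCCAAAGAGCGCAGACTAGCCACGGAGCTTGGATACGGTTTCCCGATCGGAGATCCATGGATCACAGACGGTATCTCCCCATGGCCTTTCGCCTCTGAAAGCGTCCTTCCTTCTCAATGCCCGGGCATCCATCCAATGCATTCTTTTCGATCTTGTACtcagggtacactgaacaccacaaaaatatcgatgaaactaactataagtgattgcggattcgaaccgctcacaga
Of the 136 windows of 50 bases inside rrn26, 0 occur outside the mitochondrial genome, while 103 of the 139 windows that reach beyond rrn26 do. The sources used here do not say whether counting was by strand, so reads of ORF107A and of rrn26 cannot be told apart there, and the part of rrn26 in the reads of ORF107A was not tested.

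With the ribosomal RNAs left out, the direction of the mitochondrial sum turned on ORF107A. The 69 other loci summed to 1747 counts (mock) and 2571 (NAA) in Col-0 and 1888 and 1744 in arf7, which was 1.56-fold higher with NAA in Col-0 (1.47 to 1.66). Without ORF107A as well, the remaining 68 loci summed to 740, 339, 835 and 818 counts. Here Col-0 NAA was the lowest, 2.05-fold below Col-0 mock (1.80 to 2.34), while the arf7 libraries lay at 0.953-fold with NAA (0.865 to 1.05). Counts of ribosomal RNA per count of these 68 loci were 5.73 and 141 in Col-0 (mock, then NAA) and 6.26 and 5.92 in arf7.

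With 1 library per group, no test between single groups was made, and loci were called by size, when the fold reached 2 and its interval left out 1. With NAA in Col-0, 4 of the 27 compared loci were higher and 11 lower. Over all 17317 loci compared, 14.8% were higher and 13.7% lower by this size rule (28.5% either way). The higher ones were rrn26, rrn18, ORF107A and ORF114. The median log2 fold of the 24 loci other than ribosomal RNA was -0.92, also with loci at 0 counts set at their bound, beside -0.04 over all loci. The 45 loci below the minimum, summed, were 3.92-fold lower (2.71 to 5.81), with 150 counts in Col-0 mock and 36 in Col-0 NAA. The mean behind the minimum includes Col-0 NAA, so low counts there help to place a locus below it. This sum is thus partly set by the minimum.

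**Figure D2:**
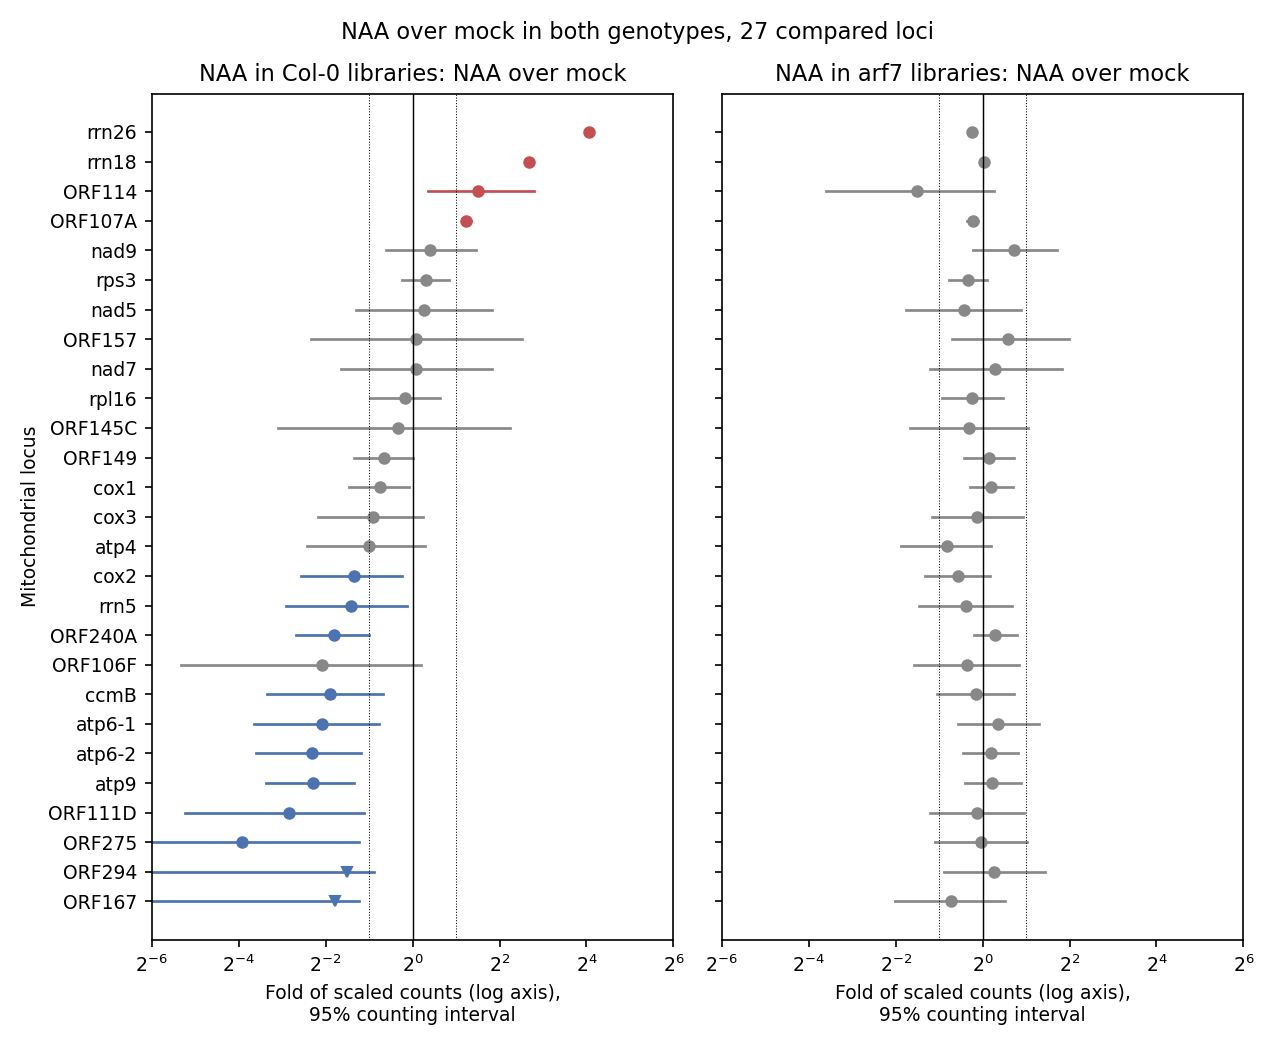
Fold of scaled counts with NAA over mock, on a log axis with 95% counting intervals, for the 27 compared mitochondrial loci in Col-0 (left) and arf7 (right), in the order of the Col-0 fold. Red and blue mark loci that met the size rule as higher and lower, triangles mark bounds for loci at 0 counts, dotted lines mark 2-fold, and no locus is coloured in arf7.

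Messages of the ATP synthase (complex V), which makes ATP from the proton gradient, had the lowest summed fold of the role groups with NAA in Col-0. The 5 loci summed to 145 counts (mock) and 34 (NAA) in Col-0 and 126 and 138 in arf7, and only Col-0 NAA was low, by 4.01-fold (2.75 to 6.01). In arf7 the sum with NAA was 1.07-fold that of mock (0.831 to 1.37). Of the 4 that were compared, 3 met the rule as lower in Col-0. One of them, atp9 (ATMG01080; chromosome M, 278649 to 279152, forward strand), encodes the ring subunit of the membrane rotor. It had 57 and 11 counts in Col-0 (mock, then NAA) and 39 and 47 in arf7, 4.88-fold lower with NAA in Col-0 (2.53 to 10.3) and 1.17-fold in arf7 (0.751 to 1.84).

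The proton-channel subunit is encoded by 2 copies, atp6-1 (ATMG00410; chromosome M, 111587 to 112907, forward strand) and atp6-2 (ATMG01170; 296820 to 298204, reverse strand). Counts of atp6-2 were 42, 8, 42 and 49, 4.94-fold lower with NAA in Col-0 (2.29 to 12.2). Counts of atp6-1 were 27, 6, 19 and 25, 4.23-fold lower (1.71 to 12.5). Both were low in Col-0 NAA alone. Reads covered at most 15.06% of atp6-1 and 40.51% of atp6-2, and reads equal in both copies may be missing from each. The stalk subunit atp4 (ATMG00640) had 17, 8, 24 and 14 counts and did not meet the rule, at 2.00-fold lower (0.818 to 5.35). The catalytic subunit atp1 had at most 3 counts per library.

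Cytochrome c oxidase (complex IV), the terminal enzyme of the respiratory chain, was 1.90-fold lower in sum in Col-0 NAA (1.34 to 2.73), with 99, 49, 122 and 121 counts over its 3 mitochondrial subunits. The subunit cox2 (ATMG00160) had 27, 10, 39 and 27 counts and met the rule, at 2.54-fold lower (1.19 to 5.88). The catalytic subunit cox1 (ATMG01360; chromosome M, 349830 to 351413, reverse strand) had 52, 29, 65 and 77 counts, 1.69-fold lower (1.05 to 2.76), and cox3 (ATMG00730) had 20, 10, 18 and 17, 1.88-fold lower (0.841 to 4.50). Neither cox1 nor cox3 met the rule, and Col-0 NAA was the lowest library for each of the 3 subunits. Among genes of cytochrome c maturation, which attach haem to the protein, ccmB (ATMG00110) was compared. It had 28, 7, 25 and 23 counts, 3.76-fold lower with NAA in Col-0 (1.61 to 10.2), again low in that library only.

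Genes of complex I, the NADH dehydrogenase, and of the mitochondrial ribosome did not follow the ATP synthase. The 11 complex I loci summed to 62, 53, 75 and 77 counts, 0.909-fold with NAA in Col-0 (0.618 to 1.33), and 0 of the 3 compared met the rule. The subunit nad9 (ATMG00070) had 16, 20, 16 and 27 counts, a fold of 1.33 (0.654 to 2.74), with Col-0 NAA above both mock libraries. The 3 ribosomal protein genes summed to 98, 97, 144 and 126 counts, 1.05-fold (0.786 to 1.41). Of these, rps3 (ATMG00090) had 58, 67, 102 and 83 counts, 1.23-fold with NAA in Col-0 (0.851 to 1.78), and rpl16 (ATMG00080) had 31, 26, 39 and 34, 0.891-fold (0.508 to 1.55). For rps3 the lowest library was Col-0 mock.

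These values have a common place on the map. In the order of the files, nad5 (its exon locus ATMG00060), nad9, rpl16 and rps3 lie side by side on the reverse strand of chromosome M, between 20571 and 28733. Together they held 113 counts and 122 in Col-0 (mock, then NAA) and 170 and 154 in arf7, so the Col-0 libraries were close. Their fold with NAA in Col-0 was 1.15 (0.881 to 1.5), while the 64 loci outside ribosomal RNA, ORF107A and this stretch were 2.72-fold lower (2.33 to 3.19). The stretch was chosen after its values were seen, and rpl16 and rps3 overlap, so their reads may not be separate.

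The other role loci had few reads. In complex I, nad7 (ATMG00510) had 7, 7, 8 and 10 counts and the nad5 exon locus ATMG00060 had 8, 9, 13 and 10, with folds of 1.06 (0.318 to 3.55) and 1.20 (0.409 to 3.56) with NAA in Col-0. Below the minimum lay nad4 with 6, 4, 7 and 11 counts, nad4L with 3, 5, 4 and 4, and the nad2 locus ATMG01320 with 8, 2, 10 and 7. The nad1 locus ATMG01120 differed from these in being low in both NAA libraries, with 12, 2, 11 and 2 counts. The second loci of nad1, nad2 and nad5 and the nad3 locus had at most 4 counts in any library.

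Outside complex I, the ribosomal protein gene rpl2 had 9, 4, 3 and 9 counts and the maturase matR, whose locus lies within that of a nad1 part, had 6, 1, 9 and 8. The cytochrome c maturation genes ccmFN2 and ccmFN1 had 3, 1, 6 and 5 and 2, 2, 1 and 1 counts, and mttB, a homologue of a bacterial protein transport subunit, had 0, 1, 2 and 1. The transfer RNA locus TRNC had 2, 0, 2 and 1. At these counts no difference between libraries was detectable for a single gene, apart from the nad1 locus.

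Within the 68 loci, the make-up of the reads differed most in Col-0 NAA. Ribosomal protein genes took 13.2% of these reads in Col-0 mock (exact 95% interval 10.9 to 15.9), 28.6% in Col-0 NAA (23.9 to 33.7), 17.2% in arf7 mock and 15.4% in arf7 NAA. Complex V took 19.6% (16.8 to 22.6), 34 of 339 reads (7.05 to 13.7%), 15.1% and 16.9%. Complex IV took 13.4% to 14.8% in the 4 libraries, and complex I took 8.38%, 15.6%, 8.98% and 9.41%. Open reading frames other than ORF107A took 39.9%, 27.7%, 38.7% and 38.8%. For ribosomal proteins, complex I, complex V and open reading frames, Col-0 mock and both arf7 libraries lay nearer each other than to Col-0 NAA. They were not equal: the arf7 mock intervals were 14.7 to 20.0 for ribosomal proteins and 12.7 to 17.7 for complex V. Each overlapped that of Col-0 mock, and the complex V interval of arf7 mock also overlapped that of Col-0 NAA.

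**Figure D3:**
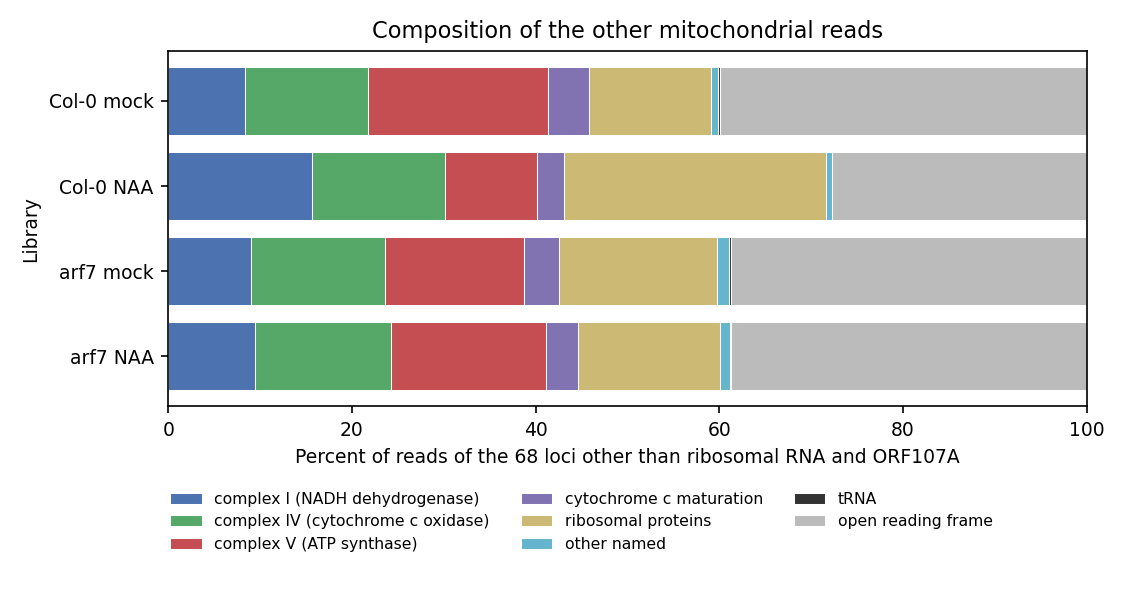
Percent of the reads of the 68 mitochondrial loci other than ribosomal RNA and ORF107A that fell to each role group, 1 bar per library. In Col-0 NAA the ribosomal protein and complex I segments are wider and the complex V and open reading frame segments narrower than in the other 3 libraries.

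The open reading frames other than ORF107A summed to 295 counts (mock) and 94 (NAA) in Col-0 and 323 and 317 in arf7, 2.95-fold lower with NAA in Col-0 (2.33 to 3.77). No role is known for most of them. ORF240A (ATMG00690; chromosome M, 203588 to 204310, reverse strand) had 63, 17, 62 and 78 counts, 3.49-fold lower (2.02 to 6.36). ORF111D (ATMG01370), which ends 9 bases from rrn5, had 23, 3, 17 and 16 counts, a ratio of 7.21 (2.18 to 37.5). Both were low in Col-0 NAA only.

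ORF275 (ATMG00670) had 16, 1, 17 and 17 counts, a ratio of 15.1 between Col-0 mock and Col-0 NAA (2.34 to 631). ORF167 (ATMG00140) had 11, 0, 16 and 10 counts and ORF294 (ATMG01200) 9, 0, 13 and 16, so with the 0 set at 3 counts in that library ORF167 was at least 3.45-fold lower and ORF294 at least 2.82-fold. ORF149 (ATMG00660), with 52, 31, 51 and 58 counts, did not meet the rule, at 1.58-fold lower (0.993 to 2.55). ORF114 (ATMG01000) was the only open reading frame beside ORF107A that was higher, with 9, 24, 11 and 4 counts. Its fold was 2.83 in Col-0 (1.27 to 6.93), and in arf7 it was 0.354 (0.0822 to 1.19), the widest spread between arf7 libraries among the 27 loci. It overlaps nad3, which had at most 1 count in any library. ORF106F (ATMG01130), with 9, 2, 15 and 12 counts, and ORF145C (ATMG01350), with 4, 3, 12 and 10, did not meet the rule with NAA in Col-0. Below the minimum, ORF110B had 6, 0, 8 and 12 counts and ORF113 had 9, 0, 10 and 4, both at 0 in Col-0 NAA only. None of the 30 open reading frames below the minimum had over 2 counts in that library, where the other libraries reached 9 to 12. Low counts in Col-0 NAA help to place a locus below the minimum, so this is partly set by it.

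In arf7, 0 of the 27 compared loci met the rule with NAA in either direction, where 3.84% of all loci were higher and 4.37% lower (8.21% either way). The median log2 fold of the 24 loci other than ribosomal RNA was -0.12. The 7 loci with over 50 counts in both arf7 libraries lay between 0.792-fold for rps3 (0.585 to 1.07) and 1.22-fold for ORF240A (0.866 to 1.74). With no minimum on the counts, 2 of the 72 loci met the rule as lower, the nad1 exon locus ATMG01120 with 11 counts in arf7 mock and 2 in arf7 NAA, and ORF204 with 6 and 0. These 2 were named after their values were seen. The shares above are of loci that met the minimum, so they do not apply to this count.

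The difference between the NAA responses of the genotypes was computed per locus from all 4 libraries, as the log2 fold in arf7 minus that in Col-0, and called when it reached 1 and its Wald interval from the counts left out 0. The arf7 response was above that of Col-0 at 8 of the 27 loci and below it at 4, where 11.9% and 12.9% of all loci were called. The loci below were rrn26, with a difference of -4.30 (-4.40 to -4.21), rrn18, with -2.65 (-2.77 to -2.53), ORF114, with -2.85 (-4.76 to -0.94), and ORF107A, with -1.46 (-1.63 to -1.29). It was above for atp9, by 2.46 (1.36 to 3.56), for atp6-2, by 2.41 (1.20 to 3.63), and for atp6-1, ccmB, ORF240A, ORF111D, ORF275 and ORF294. The other 15 loci were not called, among them rps3 at -0.63 (-1.28 to 0.03) and cox1 at 0.95 (0.14 to 1.75). Counting error is the only error in these intervals, and the difference was not tested over replicates.

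Without NAA, 0 of the 27 loci differed between arf7 and Col-0 by the rule, where 2.33% of all loci were higher in arf7 and 2.32% lower (4.65% either way). The median log2 fold of the 24 loci was 0.25 and that of all loci 0.01. Among loci with over 50 counts in either library, the folds furthest above 1 were those of rps3, at 1.78-fold in arf7 (1.28 to 2.50), and rrn26, at 1.47-fold (1.40 to 1.55). For rrn18 the fold was 0.972 (0.910 to 1.04), and for atp9 0.693 (0.449 to 1.06).

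With NAA, arf7 was higher than Col-0 at 13 of the 27 loci and lower at 4, where 11.1% of all loci were higher and 13.9% lower (25.0% either way). This comparison shares the Col-0 NAA library with that of NAA in Col-0, so it holds no separate measurement of that library. The lower loci were rrn26, at 0.0744-fold (0.0716 to 0.0773), rrn18, 6.46-fold (6.15 to 6.79), ORF107A, 2.60-fold (2.41 to 2.81), and ORF114, 6.47-fold (2.22 to 25.7). The higher ones were atp9, 3.96-fold (2.02 to 8.47), atp6-2, 5.68-fold (2.67 to 13.9), atp6-1, ccmB, cox2, cox1, 2.46-fold (1.59 to 3.91), and 7 open reading frames. One of these, ORF157 (4, 4, 9 and 14 counts), named after its values were seen, met the minimum only through arf7 NAA, where it was highest, and without it 12 were higher. For rrn5 the fold was 1.99 (0.762 to 5.76), and rps3, rpl16 and nad9 lay between 1.15 and 1.25. The median log2 fold of the 24 loci was 1.38, beside 0.02 over all loci.

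The only fit that leaves a residual degree of freedom has genotype and treatment as additive terms, and it counts the difference between the responses as error. In edgeR's quasi-likelihood test with Benjamini-Hochberg adjustment, 0 of 17317 loci passed an adjusted p of 0.05 for genotype or treatment (0.0% for each). At an unadjusted p under 0.05 there were 544 loci for genotype and 1331 for treatment, with 0 of the 27 mitochondrial loci among either. For rrn26 the treatment log2 fold was 1.90, with an adjusted p of 0.729 by the same edgeR test. DESeq2 with the same design called 69 and 246 loci, of which 0 were mitochondrial. At an unadjusted p under 0.05 it had 592 loci for genotype and 1253 for treatment, with 2 mitochondrial loci among each. The authors' deposited list for NAA in Col-0 has 4203 models, of which 9 are mitochondrial, 3 up and 6 down. Their list for arf7 NAA against Col-0 NAA has 3627, of which 11 are mitochondrial, 7 up and 4 down. Their lists for NAA in arf7 and for arf7 against Col-0 without NAA have 820 and 344 models, of which 0 are mitochondrial. For scale, each library had reads of 23681 to 24310 models, of which 45 to 62 were mitochondrial. The counts in these lists are therefore not read as a result about the mitochondrial loci.

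How much of the mitochondrial genome could be counted differed between genes. In TAIR10.1, 70.7% of all windows of 50 bases in the mitochondrial genome also occur outside it, and 70.4% of all windows occur on chromosome 2. The deposited counts are of uniquely assigned reads, so reads equal in both places may be lost. For rrn26 and rrn5 the share was 0%, and for rrn18 it was 0.371%. Of 31 protein genes matched by name, 20 had at least 90% of their coding windows also outside the mitochondrial genome. These 20 held 366 counts over the 4 libraries, 154 of them in atp9. The other 11 held 1114 counts. The copies atp6-1 and atp6-2 were not searched, so their shared part is not given here. Of the other ATP synthase loci compared above, atp9 had 100% of its coding windows shared and atp4 0%. In the deposited tables atp9 and cox3 are longer (504 and 1447 bases) than the coding sequence (225 and 798 bases) that was searched, so their reads may lie outside it.

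**Figure D4:**
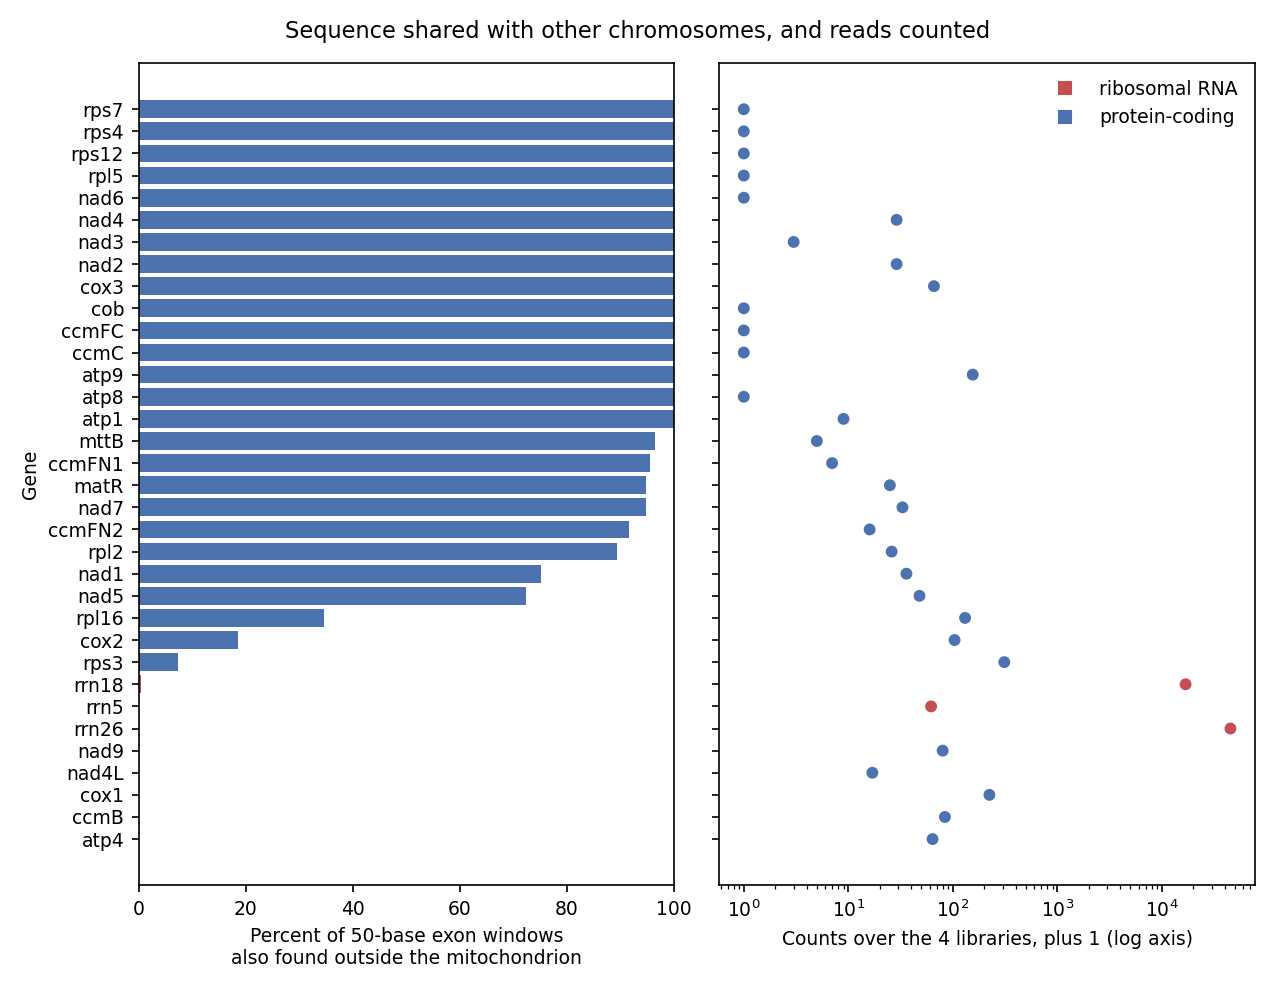
Left, percent of 50-base windows of each gene's exons in TAIR10.1 that also occur outside the mitochondrial genome. Right, counts of that gene summed over the 4 libraries, plus 1, on a log axis, where genes with no row in the tables are drawn at 1. Most genes with over 90% of windows shared have few counts, and the ribosomal RNAs share at most 0.371%.

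The loci on chromosome 2 that carry the insertion were also lowest in Col-0 NAA. The numbered range of the insertion, AT2G07660 to AT2G07835, held 79 listed loci, which summed to 1932, 780, 2256 and 1764 counts. With NAA the 79 were 2.33-fold lower in Col-0 (2.14 to 2.54) and 1.31-fold lower in arf7 (1.23 to 1.40). The 28 of them annotated as similar to a mitochondrial gene summed to 1228 counts and 601 in Col-0 (mock, then NAA) and 1470 and 1138 in arf7. With NAA these 28 were 1.92-fold lower in Col-0 (1.74 to 2.12) and 1.33-fold lower in arf7 (1.23 to 1.44), both under the 2 of the size rule. Whether their reads came from the nucleus or from mitochondria was not tested. Added to the 69 loci outside ribosomal RNA, these 28 took the fold with NAA in Col-0 from 1.56 to 1.13 (1.08 to 1.19), and all 79 took it to 0.968 (0.924 to 1.01).

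Few of the nuclear genes that work with these messages met the size rule. Of 61 nuclear genes for respiratory subunits, mitochondrial RNA and DNA handling and mitochondrial stress, 58 were compared. With NAA in Col-0, 0 were higher and 6 lower, with a median log2 fold of -0.22, while 14.8% of all loci were higher and 13.7% lower. None of the 39 nuclear subunits of complexes I to V that were compared met the rule in any of the 4 comparisons. The mitochondrial polymerase RPOTM had 29 counts (mock) and 21 (NAA) in Col-0 and 49 and 34 in arf7, 0.770-fold with NAA in Col-0 (0.417 to 1.40). RPOTMP, which serves mitochondria and plastids, had 13, 1, 17 and 13 counts, a ratio of 12.2 (1.84 to 520) between Col-0 mock and Col-0 NAA.

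The maturases NMAT2 and NMAT1, which help splice mitochondrial introns, were 2.62-fold (1.99 to 3.50) and 2.09-fold lower (1.46 to 3.02) with NAA in Col-0. Of the stress genes, the mitochondrial small heat shock protein HSP23.5 was 16.8-fold lower (11.1 to 26.8), the outer membrane protein OM66 6.26-fold (5.74 to 6.85) and the alternative NADH dehydrogenase NDA1 4.47-fold (1.49 to 18.1). The alternative oxidase AOX1A, a common marker of mitochondrial stress, had 564, 279, 646 and 500 counts and did not meet the rule, at 1.90-fold lower (1.64 to 2.20). In arf7, HSP23.5 was 2.70-fold lower with NAA (2.35 to 3.10) and UPOX, another stress-responsive gene, 3.31-fold (1.92 to 5.97), the 2 of 58 that met the rule there, beside 4.37% of all loci lower. Between arf7 and Col-0, 1 of the 58 was higher and 2 lower without NAA, and 4 were higher and 1 lower with it, with median log2 folds of -0.02 and -0.04. Over all loci, 2.33% were higher and 2.32% lower without NAA, and 11.1% higher and 13.9% lower with it.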

How the data were processed

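The authors deposited, for each of the 4 libraries, counts of uniquely assigned reads per transcript model, the percent of the model covered and an RPKM value, per the file headers. Models with no read are not listed. Deposited RPKM values were recomputed from counts and lengths and matched. TAIR10 is the build named, per the submitters' processing notes. Aligner and counter are not given in the sources used here. In 4 further tables the authors deposited log2 ratios between libraries, each with a p-value and an FDR; 16 columns of per-sample values in them were not used.

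Counts were summed per locus and scaled with TMM (edgeR 4.0.16, R 4.3.3) over all loci, with factors from 0.957 (Col-0 NAA) to 1.03 (both arf7 libraries). Loci whose mean reached 1 CPM were compared. Log2 folds had 0.5 added to each count, and a count of 0 was set at 3 for bounds. The size rule and the difference of responses were checked on simulated counts. These held counting error only, with no spread between plants or libraries, so the check does not bear on replicate spread. DESeq2 1.42.0, total counts, TMM from nuclear loci, other minima, folds and priors were the alternatives. Shared windows and both printed sequences were read from RefSeq TAIR10.1.

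Named loci were all those of the role lists and, of the others, the 10 with the highest mean RPKM and the 5 largest called folds in each direction of each comparison. Of the nuclear genes, the largest called fold in each direction of each list and AOX1A, RPOTM and RPOTMP were to be named; NMAT1, NMAT2, OM66 and the single marker genes were added after their values were seen. The members and lists were chosen with earlier results of these data known.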

Additional observations from a re-analysis of the deposited data

Results flagged for a closer look

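For 4 values the NAA response differed in direction between the genotypes. With NAA the summed mitochondrial reads were 8.97-fold those of mock in Col-0 and 0.902-fold in arf7 (0.872 to 0.933), a difference of -3.31 in log2. Without ribosomal RNA the sum was 1.56-fold in Col-0 and 0.899-fold in arf7 (0.842 to 0.960), a difference of -0.80. The ribosomal RNA rrn26 was at 16.6-fold in Col-0 and 0.840-fold in arf7, and ORF107A at 2.36-fold and 0.856-fold. The intervals in arf7 exclude 1 by counting error only. With 1 library per group these differences were not tested over replicates.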

How the results depend on the processing

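No paired analysis was possible because each group was 1 library and the labels carry no replicate numbers. Leaving out a replicate was not possible for the same reason. Of the recomputed counts and sums, 91 values stayed close to the main ones, 26 moved and 10 turned in direction. For single loci 324 of 324 values kept their call (higher, lower or neither) under total counts, TMM from nuclear loci and DESeq2 size factors. The direction of folds that were not called was not compared. Total counts moved the median of all loci by up to 0.1 in log2 (arf7 against Col-0 with NAA).

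At a mean of at least 5 CPM, 8 mitochondrial loci were left, and 5 met the rule with NAA in Col-0 (3 higher, 2 lower), 6 in arf7 against Col-0 with NAA, and 5 differed in response. With no minimum, 2 met it with NAA in arf7, and at a fold of 1.5, 1 (rps3) met it in arf7 against Col-0 without NAA. The shares of all loci given above are those of the main minimum and fold, so they do not apply to these counts. The sum of all mitochondrial loci with NAA in Col-0 was 8.72 by total counts, 6.89 with the 79 loci of the chromosome 2 range added and 4.06 without rrn26. With NAA in arf7 it was 0.868 with those loci and 0.959 without rrn26. For arf7 against Col-0 it was 1.26 by total counts and 1.03 without rrn26 in mock, and 0.130, 0.151 and 0.243 under the 3 changes with NAA. Without ribosomal RNA, the sum with NAA in Col-0 turned to 0.968 with the 79 loci and to 0.487 without ORF107A. In arf7 with NAA it was 0.824 with those loci, and for arf7 against Col-0 with NAA it was 0.676 by total counts, 0.970 with those loci and 2.24 without ORF107A. With only the 28 mitochondrial-like chromosome 2 loci added, an alternative chosen after seeing the data, the sum of all loci was 7.54 with NAA in Col-0 and 0.140 for arf7 against Col-0 with NAA. Without ribosomal RNA it was then 1.13 with NAA in Col-0, 0.835 with NAA in arf7 and 0.842 for arf7 against Col-0 with NAA, so the sum with NAA in Col-0 did not turn. The shares without ORF107A, scaling without the Col-0 NAA library and the minimum without single libraries were also chosen after seeing the data.

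Shares of the reads outside ribosomal RNA, as Col-0 NAA over Col-0 mock, depended on whether ORF107A was in the denominator. With the role lists alone as denominator they were 0.424 for complex V, 1.79 for ribosomal proteins, 1.55 for complex I and 0.895 for complex IV. Without ORF107A they were 0.512, 2.16, 1.87 and 1.08, against 0.159, 0.673, 0.581 and 0.336 with it. The change comes from the denominator alone, since ORF107A took 57.6% of these reads in Col-0 mock and 86.8% in Col-0 NAA.

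All but 12 loci had under 10 counts in at least 1 library. With 1 library per group, neither plant-to-plant spread nor a library effect can be separated from treatment or genotype.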
